A study of Mus musculus with 38 samples.

Results

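Tpm3 with Tpm3-rs7, and Selenbp1 with Selenbp2, are pairs of mouse genes whose transcripts are nearly the same in sequence. The 4 genes, of 31053 gene symbols in the deposited tables, were chosen by their deposited counts, since the split of counts within each pair differed between IL-23R knockout (KO) and wild-type (WT) cultures, so that contrast is described below without a test. Tpm3 encodes a tropomyosin, a coiled-coil protein that lies along actin filaments and sets which other proteins may bind them. Tpm3-rs7 ("related sequence") is annotated as a protein-coding gene with a single exon. That is the form of a retrogene, a copy of an mRNA inserted elsewhere in the genome. Selenbp1 encodes a selenium-binding protein that holds selenium without being a selenocysteine-containing selenoprotein; its human counterpart is a methanethiol oxidase. Selenbp2 is its mouse paralogue, first described as an acetaminophen-binding protein of liver.

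RNA was sequenced from pathogenic Th17 (Th17Inf) T helper cells of mice, all labelled C57/B6, in 38 libraries made from 2000 sorted cells each. In vitro, naive T cells from IL-23R KO or WT mice were differentiated, then cultured a further 2 days either with the synthetic glucocorticoid dexamethasone (Dex) or as untreated controls. This gave KO with Dex, KO control, WT with Dex and WT control groups of 4 libraries each. In vivo, T cells with the 2D2 receptor were differentiated, transferred into WT recipients to induce EAE, a model of multiple sclerosis, and sorted at peak disease. These libraries were CHD1 conditional knockout (cKO, n = 4) and CHD1 WT (n = 3) cells from the CNS, the same groups from the draining lymph node (dLN), and glucocorticoid receptor (GR) cKO and GR WT cells from the CNS (n = 4 each). The Cre driver of the conditional alleles was not given in the sources used here. The labels do not say that libraries of a group came from separate animals or cultures, so p-values measure only the spread between libraries.

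The transcripts show what a count of these genes can and cannot separate. In GENCODE M21, Tpm3 (ENSMUSG00000027940.18) lies at chr3:90072649-90100902 and Tpm3-rs7 (ENSMUSG00000058126.7) at chr14:113314608-113316754, both on the plus strand of mm10. The Tpm3 transcript ENSMUST00000029549.15 and the single-exon Tpm3-rs7 transcript ENSMUST00000072359.7 aligned over 2103 bases with 14 differences (99.3% identity) and 6 gapped columns. Of these differences, 3 fell in the 744-base coding sequence and 11 outside it. All 3 coding differences lie within 100 bases of each other, in exons 1 to 2 of the Tpm3 transcript (chr3:90079780-90086461, spliced) and at chr14:113314724-113314823 of Tpm3-rs7, and are shown because reads over them can tell the pair apart. Counted from 1 at the start of that transcript they are G264A, G290A and G319A, with the Tpm3 base first, and capitals mark them in the lines that follow.
Tpm3: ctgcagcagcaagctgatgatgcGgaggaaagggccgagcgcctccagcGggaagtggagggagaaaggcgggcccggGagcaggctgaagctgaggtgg
Tpm3-rs7: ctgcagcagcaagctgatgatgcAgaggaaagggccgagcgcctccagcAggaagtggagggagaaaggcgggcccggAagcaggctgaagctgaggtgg

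Selenbp2 (ENSMUSG00000068877.12, chr3:94693556-94704413) and Selenbp1 (ENSMUSG00000068874.13, chr3:94933056-94944758) are neighbours on the plus strand, 0.229 Mb apart, and Selenbp2 begins 4.59 Mb past the end of Tpm3. Their transcripts ENSMUST00000090839.11 and ENSMUST00000090848.9 aligned over 1712 bases with 25 differences (98.5% identity) and no gap, 18 of them in the 1416-base coding sequence. The stretch below, from exons 11 to 12 (chr3:94944133-94944444 in Selenbp1 and chr3:94703780-94704092 in Selenbp2, spliced), holds 4 of them in 100 bases. They are A1318G, C1326A, A1370G and A1382G, counted from 1 at the start of the Selenbp1 transcript with the Selenbp1 base first, and are capitals in the lines that follow.
Selenbp1: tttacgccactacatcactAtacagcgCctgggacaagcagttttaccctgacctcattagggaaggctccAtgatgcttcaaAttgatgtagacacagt
Selenbp2: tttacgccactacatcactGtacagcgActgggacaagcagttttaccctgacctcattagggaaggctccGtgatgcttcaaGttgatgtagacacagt

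Of all 75-base words in the Tpm3 transcript, 56.6% also occur in that of Tpm3-rs7, and 58.9% of the words of Tpm3-rs7 occur in that of Tpm3. For Selenbp1 and Selenbp2 these shares were 34.7% and 34.6%. The tables hold expected counts, in which reads that match several transcripts are divided between genes by a model, so the split within a pair is an estimate and the sum of a pair is the firmer value. Gm4157, Gm7839 and Gm7848, which are not among the genes counted in vitro, share 16, 19 and 23 words of 75 bases with both Tpm3 and Tpm3-rs7. Their part in the sum of the Tpm3 pair was not tested. Whether mice of the KO line differ from the reference genome at these bases was not tested, since the deposited tables hold no sequence.

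Levels below are CPM, in which each count is divided by the total of its library. These totals ran from 3148634 to 9159671 counts over all libraries and from 3320586 to 4732419 in the cultures, and a count of 0 in vitro allows up to 0.634 to 0.903 CPM (3 counts). The KO libraries with Dex stood apart: a list of 16 repeat and ribosomal RNA features held 30.5 to 37.5% of their counts, while it held 13.5 to 25.4% in the remaining 12 cultures. Mitochondrial genes held 0.359 to 0.447% in KO with Dex libraries, against 1.46 to 2.26% in the remaining 12, and 7 T cell markers summed to 1306 to 1606 CPM in KO with Dex libraries, against 2126 to 2428 CPM in the other in vitro groups. Intervals and limits cover counting error only. Il23r, the targeted gene, had 2.25 to 6.22 CPM in KO control libraries, against 6.33 to 8.66 CPM in WT control libraries, and 1.12 to 2.11 CPM in KO libraries with Dex, against 5.57 to 16.6 CPM in WT libraries with Dex. Nr3c1, which encodes GR, had 5.25 to 5.68 CPM in GR cKO libraries, against 11.1 to 18.0 CPM in GR WT libraries. Chd1 had 3.56 to 6.87 CPM in CHD1 cKO and 4.24 to 6.14 CPM in CHD1 WT libraries of the CNS, and 2.28 to 6.04 and 4.27 to 5.47 CPM in those of the dLN, so its level did not separate these libraries, which are named as labelled. Counts per gene do not show which exons reads came from.

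Without Dex, KO cultures had less Tpm3 and much more Tpm3-rs7 than WT cultures, while the sum of the pair was close to equal. Tpm3 had 163, 193, 173 and 182 CPM in KO control libraries, against 385, 394, 372 and 386 CPM in WT control libraries. Tpm3-rs7 had 197, 235, 187 and 237 CPM in KO control libraries, against 0, 1.48, 0.216 and 0.938 CPM in WT control libraries. Neither gene's groups overlapped. In counts, Tpm3-rs7 held 3538 in the 4 KO control libraries and 12 in the 4 WT control libraries. The sum of the pair was 392 ± 36.9 CPM in KO control libraries, against 385 ± 9.73 CPM in WT control libraries (SD, n = 4 each), a ratio of 1.02 with overlapping groups. Tpm3-rs7 made up 54.5 ± 1.89% of the pair in KO control libraries and 0.169 ± 0.172% in WT control libraries (SD, n = 4 each).

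**Figure D1:**
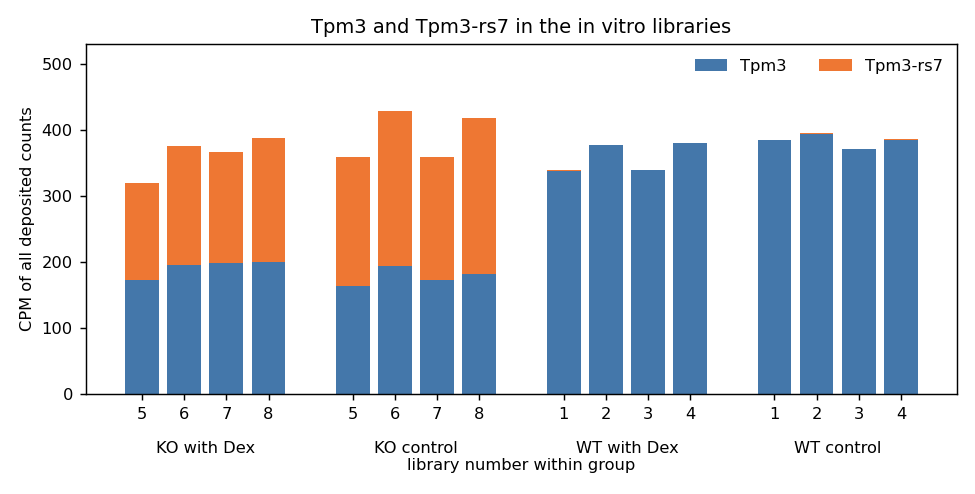
Bars show CPM of all deposited counts (y axis) of Tpm3 (blue) with Tpm3-rs7 (orange) stacked on it, 1 bar per in vitro library (x axis, library number within its group). The orange part is visible in all 8 KO libraries and at most 1.48 CPM high in the 8 WT libraries, while bar heights overlap between the genotypes under each treatment.

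The Selenbp pair showed the same kind of split with a smaller share for the second gene. Selenbp1 had 185, 101, 173 and 139 CPM in KO control libraries, against 206, 147, 195 and 192 CPM in WT control libraries, and the groups overlapped. Selenbp2 had 14.1, 16.4, 20.8 and 15.7 CPM in KO control libraries, against 0.438, 0, 0 and 0 CPM in WT control libraries, with no overlap. The 4 WT control libraries held 2 Selenbp2 counts in all, and the 4 KO control libraries held 272. The pair summed to 167 ± 38.1 CPM in KO control libraries, against 185 ± 26.3 CPM in WT control libraries (SD, n = 4 each), and the groups overlapped. Without Dex, the groups of Tpm3, Tpm3-rs7 and Selenbp2 thus did not overlap. Since this contrast chose the genes, nothing is read from that. For the background, edgeR called 0.684% of 10813 tested genes between the genotypes. That is a different measure from groups that do not overlap, and the share of all genes without overlap is not given here.

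With Dex, the Tpm3 pair kept its split between genotypes, and the Selenbp pair was higher in KO cultures as a whole. Tpm3 had 173, 196, 199 and 200 CPM in KO libraries with Dex, against 339, 378, 340 and 380 CPM in WT libraries with Dex. Tpm3-rs7 had 147, 181, 168 and 189 CPM in KO libraries with Dex, against 1.29, 0.461, 0.643 and 0 CPM in WT libraries with Dex. The groups of both genes were apart, and their sums overlapped at 363 ± 29.6 CPM in KO with Dex and 360 ± 22.5 CPM in WT with Dex (SD, n = 4 each). That overlap depended on the scaling: after TMM scaling, which sets libraries level on the bulk of genes, the sums averaged 448 CPM in KO with Dex and 358 CPM in WT with Dex and no longer overlapped.

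Selenbp1 had 389, 473, 445 and 462 CPM in KO libraries with Dex, against 148, 125, 151 and 163 CPM in WT libraries with Dex. Selenbp2 had 44.2, 65.3, 49.9 and 47.1 CPM in KO libraries with Dex, against 0, 1.62, 0 and 0 CPM in WT libraries with Dex. All KO libraries with Dex were above all WT libraries with Dex for both genes. The pair summed to 494 ± 44.3 CPM in KO with Dex and 147 ± 15.1 CPM in WT with Dex (SD, n = 4 each), 3.36 times the WT level, or 608 and 147 CPM after TMM scaling. With Dex, 45.9% of tested genes were called between the genotypes.

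**Figure D2:**
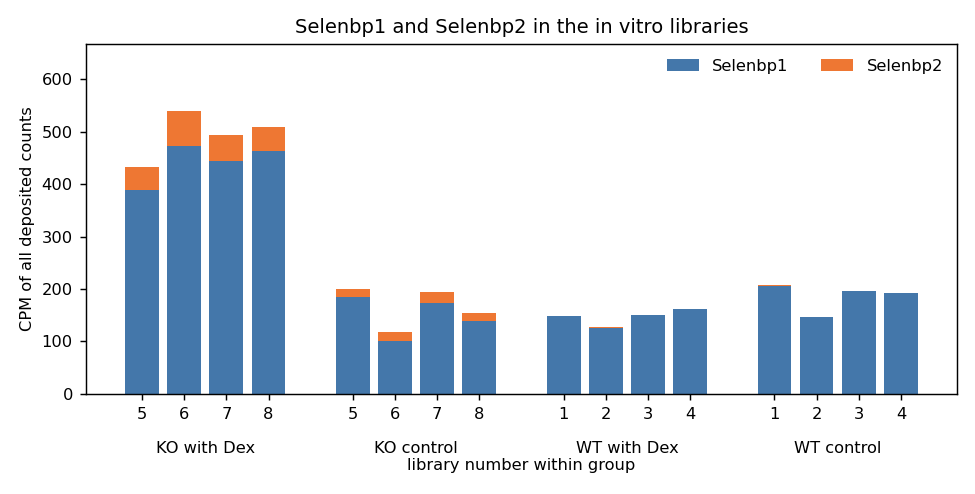
Bars show CPM of all deposited counts (y axis) of Selenbp1 (blue) with Selenbp2 (orange) stacked on it, 1 bar per in vitro library (x axis, library number within its group). The 4 KO libraries with Dex reach 433 to 538 CPM, all above the other 12 libraries, and an orange part is visible in the KO libraries of both treatments.

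Per kilobase of annotated exon, Tpm3-rs7 was above Tpm3 in KO cultures and far below it in WT cultures. The mean level was 79.8 CPM per kb for Tpm3-rs7 and 31.5 CPM per kb for Tpm3 in KO with Dex, and 99.7 and 29.2 CPM per kb in KO control libraries. In WT control libraries it was 0.307 CPM per kb for Tpm3-rs7 and 63.1 CPM per kb for Tpm3. Selenbp1 had 195 CPM per kb and Selenbp2 22.7 CPM per kb in KO with Dex. The exonic length of Tpm3 (6085 bases) covers several transcript forms and that of Tpm3-rs7 (2147 bases) covers 1. These ratios, and the order of the genes in KO with Dex, thus depend on which forms the cells made. The Tpm3 transcript aligned above has 2230 bases, and dividing by that length would put Tpm3 above Tpm3-rs7 in KO with Dex.

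The response to Dex within each genotype was not used to choose the genes and was tested in edgeR with TMM scaling. There 54.7% of 10813 genes were called in KO cultures and 8.08% in WT cultures. In KO cultures the counts assigned to both Selenbp genes rose with Dex, whichever scaling was used. The mitochondrial share and T cell marker level given above differed in the same libraries, and their part in the Dex responses was not tested. Selenbp1 rose 4.02-fold in KO cultures (log2 2.01 ± 0.17, SE, adjusted p = 5.62e-08, edgeR), all 4 Dex libraries lying above all 4 control libraries. Selenbp2 rose 4.22-fold (log2 2.08 ± 0.25, SE, adjusted p = 2.93e-06, edgeR), again with no overlap. Whether Selenbp2 itself rose or received a fixed part of the reads of Selenbp1 was not tested. The sum of the pair rose 4.04-fold (adjusted p = 2.90e-08, edgeR), so the share of Selenbp2 stayed close: 10.4 ± 1.23% in KO with Dex and 10.5 ± 2.79% in KO control libraries (SD, n = 4 each; exact two-sided permutation test, p = 0.971). In WT cultures Selenbp1 did not pass the test (log2 -0.22 ± 0.17, SE, adjusted p = 0.497, edgeR), nor did the sum of the pair (log2 -0.21 ± 0.16, adjusted p = 0.477, edgeR). The difference between the Dex responses, KO minus WT, was log2 2.22 ± 0.24 for Selenbp1 (SE, adjusted p = 4.73e-06, edgeR) and 2.23 ± 0.23 for the sum of the pair (adjusted p = 2.73e-06, edgeR), beside 32.2% of genes called for that difference. It equals the change in the KO against WT contrast between control and Dex cultures, and that contrast chose the genes. Its p-values are thus not independent of the choice, here and below.

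For the Tpm3 pair the Dex response in KO cultures depended on the scaling. With TMM scaling Tpm3 rose 1.49-fold in KO cultures (log2 0.57 ± 0.06, SE, adjusted p = 4.97e-07, edgeR), and without scaling factors its change was log2 0.11 ± 0.07 (adjusted p = 0.200, edgeR). Tpm3-rs7 did not pass the test in either fit, with log2 0.14 ± 0.15 (adjusted p = 0.434, edgeR) after TMM scaling and log2 -0.32 ± 0.17 (adjusted p = 0.113, edgeR) without scaling factors. The sum of the pair rose 1.28-fold after TMM scaling (log2 0.35 ± 0.06, adjusted p = 5.59e-05, edgeR) and had the other sign, log2 -0.11 ± 0.08 (adjusted p = 0.232, edgeR), without them. Leaving out the scaling factors moved the Dex change of the median gene by -0.47 on the log2 scale in KO cultures and by -0.11 in WT cultures. The Selenbp calls passed in both fits, with log2 1.56 for Selenbp1 and 1.62 for Selenbp2 without scaling factors. In the fit with TMM scaling, 3 of the 4 genes rose with Dex in KO cultures, where 27.3% of tested genes rose, and without scaling factors 2 of the 4 rose, where 12.6% of tested genes did. These counts include both Selenbp genes, whose split is an estimate.

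In WT cultures neither Tpm3 (log2 0.02 ± 0.06, SE, adjusted p = 0.903, edgeR) nor the sum of the pair (log2 0.02 ± 0.06, adjusted p = 0.901, edgeR) passed the test for Dex. The KO minus WT difference in Dex response was log2 0.56 ± 0.08 for Tpm3 (SE, adjusted p = 8.82e-05, edgeR) and 0.34 ± 0.08 for the sum of the pair (adjusted p = 0.00408, edgeR). Without scaling factors these were 0.21 (adjusted p = 0.117) and -0.01 (adjusted p = 0.943), and neither passed. Tpm3-rs7 and Selenbp2 averaged at or under 3 counts per library in both WT groups, and no fold change with Dex is given for them there.

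A share within a library does not depend on scaling. Tpm3-rs7 made up 46.0, 48.0, 45.8 and 48.6% of its pair in KO libraries with Dex, against 54.7, 54.9, 52.0 and 56.6% in KO control libraries. All 4 Dex libraries lay below all 4 control libraries, by 7.44 percentage points on average (exact two-sided permutation test, p = 0.0286, the smallest that 4 against 4 libraries allows; adjusted p = 0.0714 over 5 comparisons). The difference did not pass after adjustment. In the WT groups the share did not exceed 0.381% in any library.

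**Figure D3:**
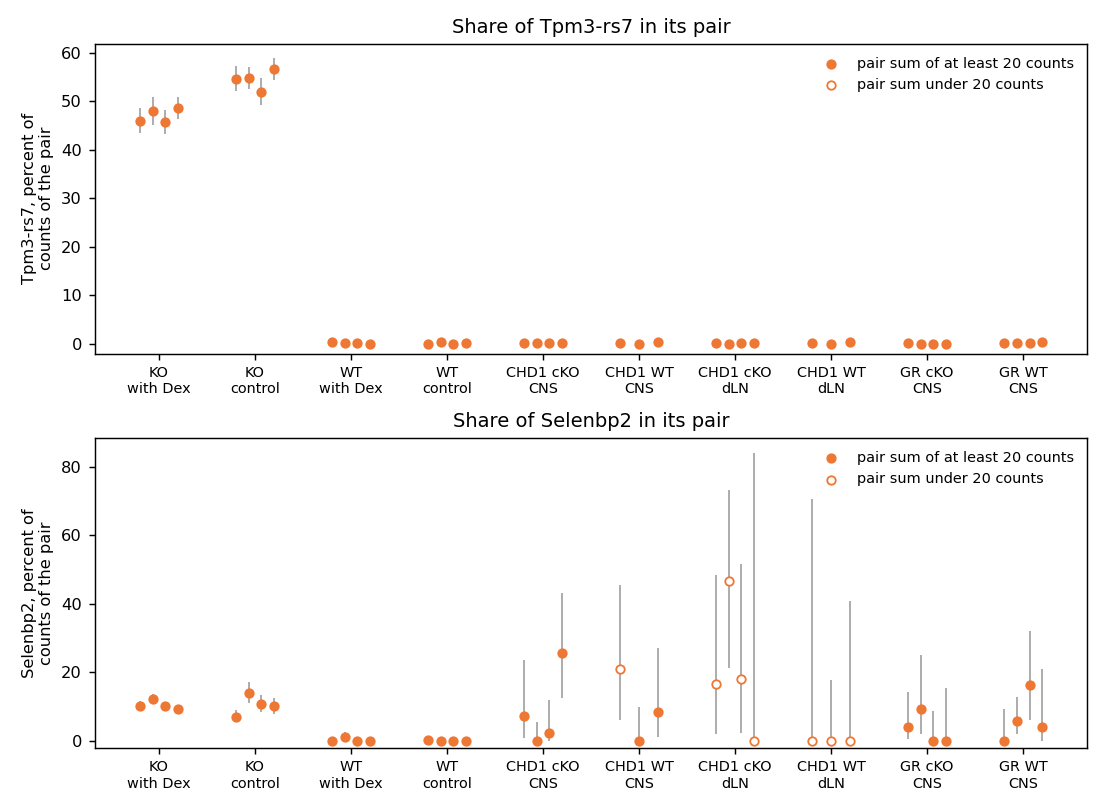
Points show the share of Tpm3-rs7 (upper panel) and Selenbp2 (lower panel) in the counts of its pair (y axis, percent), 1 point per library in the 10 groups (x axis), with 95% exact (Clopper-Pearson) binomial intervals as bars. Only the 8 KO cultures have Tpm3-rs7 shares above 1%, at 45.8 to 56.6%; open points mark libraries with fewer than 20 counts for the pair.

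In vivo, where the labels name no Il23r allele, Tpm3 was abundant and Tpm3-rs7 close to 0 in each genotype. In the CNS, Tpm3 had 529, 566, 577 and 616 CPM in CHD1 cKO libraries, against 491, 501 and 398 CPM in CHD1 WT libraries (log2 0.15 ± 0.12, SE, adjusted p = 0.638, edgeR). In the dLN it had 289, 307, 233 and 244 CPM in CHD1 cKO libraries, against 304, 340 and 240 CPM in CHD1 WT libraries (log2 -0.04 ± 0.10, SE, adjusted p = 0.872, edgeR). GR cKO libraries had 366, 448, 339 and 397 CPM, against 442, 469, 383 and 478 CPM in GR WT libraries (log2 -0.10 ± 0.09, SE, adjusted p = 0.737, edgeR). By CPM all CHD1 cKO libraries of the CNS lay above the CHD1 WT ones, and the other groups overlapped. After TMM scaling these CNS groups overlapped too, at 502 to 603 CPM in CHD1 cKO and 474 to 505 CPM in CHD1 WT libraries. With repeat and ribosomal RNA features removed they stayed apart, at 645 to 734 and 590 to 622 CPM. None of the 3 genotype comparisons passed the test for Tpm3; in them 0.00896%, 0.0714% and 0% of tested genes were called, the last beside 1226 genes at an unadjusted p under 0.05 and 122 called by DESeq2.

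Tpm3-rs7 had 26 counts in the 4 CHD1 cKO and 17 in the 3 CHD1 WT libraries of the CNS, 6 and 7 in those of the dLN, and 6 in the 4 GR cKO and 31 in the 4 GR WT libraries. The GR cKO libraries had 2, 2, 1 and 1 counts, against 7, 7, 5 and 12 in GR WT libraries, so the groups did not overlap. Its share of the pair was 0.0560 ± 0.0211% in GR cKO and 0.230 ± 0.0818% in GR WT libraries (SD, n = 4 each; exact two-sided permutation test, p = 0.0286, adjusted p = 0.0714), which did not pass after adjustment. The shares in the CHD1 groups did not pass either (exact permutation tests, p = 0.629 in the CNS and 0.514 in the dLN, where 0.0571 is the smallest p that 4 against 3 libraries allows).

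Selenbp1 was low in vivo. It had 5.29, 12.2, 7.65 and 4.15 CPM in CHD1 cKO libraries of the CNS, against 2.56, 6.51 and 4.06 CPM in CHD1 WT libraries (log2 0.58 ± 0.42, SE, adjusted p = 0.616, edgeR). It had 7.03, 3.99, 5.29 and 3.50 CPM in GR cKO libraries, against 4.15, 10.7, 4.91 and 3.23 CPM in GR WT libraries (log2 -0.10 ± 0.38, SE, adjusted p = 0.949, edgeR). The groups overlapped in both. In the dLN Selenbp1 had 2 to 10 counts in CHD1 cKO libraries and 3 to 19 in CHD1 WT libraries, too few to pass the filter on low counts. Selenbp2 had at most 9 counts in any in vivo library, so its share there was not resolved at this depth. The CNS libraries also held RNA of other cells: 6 macrophage and microglia markers summed to 1280 to 5058 CPM there, against 1.97 to 22.3 CPM in vitro, and their part in the Tpm3 and Selenbp1 levels was not tested. In bulk libraries, fewer cells of a type and less RNA per cell cannot be told apart.

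The order of the group means in CPM of all deposited counts put the Tpm3 pair highest in the CHD1 CNS libraries (573 in cKO, 464 in WT), then in the GR libraries (388 in cKO, 444 in WT), close to the 4 in vitro groups (360 to 392), and lowest in the dLN (269 in cKO, 295 in WT). In this order the libraries of neighbouring groups overlapped, except that all CHD1 cKO libraries of the CNS lay above all CHD1 WT ones, and that all dLN libraries lay below all WT libraries with Dex. After TMM scaling the CHD1 groups of the CNS overlapped, with pair sums of 503 to 604 CPM in cKO and 477 to 507 CPM in WT libraries. The Selenbp pair was highest in KO with Dex (494), at 167 in KO control, 147 in WT with Dex and 185 in WT control libraries, while the in vivo means were 2.42 to 7.83; the 3 in vitro groups other than KO with Dex overlapped. The order of the Tpm3 pair depended on the scaling. The 16 repeat and ribosomal RNA features held 41.8 to 59.7% of counts in dLN libraries and 13.5 to 37.5% in vitro. With these features removed, the Tpm3 pair averaged 549 CPM in cKO and 563 CPM in WT libraries of the dLN. The in vitro means were then 464 to 543 CPM, so the dLN was no longer lowest. The 4 tables were not joined and no test was made across them.

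Other copies of expressed genes are set beside Tpm3-rs7 as a description, since the share of Tpm3-rs7 in this contrast chose it. In 14 other pairs of a parent gene and a named processed copy, the share of the copy differed between KO and WT cultures by at most 3.79 percentage points without Dex and 7.47 with Dex, against 54.4 and 46.9 points for Tpm3-rs7. In 10 of the 14 pairs the copy stayed under 2% in every in vitro group, and Btg1-ps1, Btg1-ps2 and Rpl36-ps4 were at 0 in all of them. Nutf2-ps1 was the pair whose shares did not overlap without Dex, with 90.4% in KO control and 87.0% in WT control libraries. With Dex, Rpl10-ps3 (66.8% in KO with Dex, 71.8% in WT with Dex) and Rps12-ps3 (78.8% in KO with Dex, 81.8% in WT with Dex) did not overlap.

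**Figure D4:**
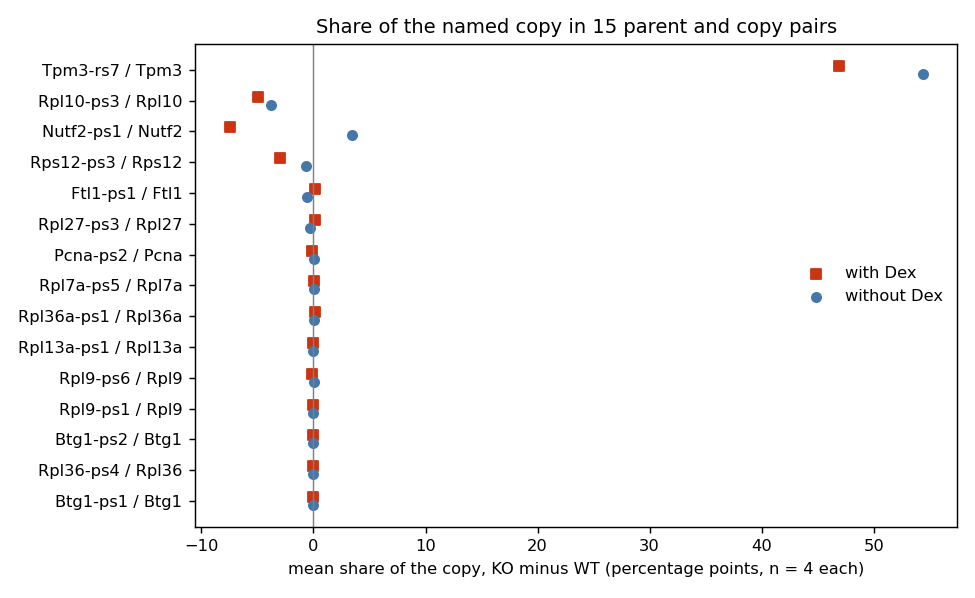
Points show the mean share of the named copy in its pair, KO minus WT in percentage points (x axis, n = 4 libraries each), for Tpm3-rs7 and 14 other copies (y axis), with Dex (red squares) and without Dex (blue circles). Tpm3-rs7 lies at 46.9 and 54.4 points, and the other 14 within 7.47 points of 0.

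Tpm3 and both Selenbp genes lie on chromosome 3, and Il23r on chromosome 6. Among genes within 5 Mb of Tpm3, by gene centres, 5 of 98 tested were called between KO and WT control libraries (5.10%), beside 0.684% of all tested genes. Within 5 Mb of Selenbp1 and Selenbp2 these were 3 of 97 (3.09%) and 3 of 100 (3.00%), all among the 5 near Tpm3 since the windows overlap. The shares moved with the window: within 2 and 10 Mb they were 4.55% and 2.98% for Tpm3, 1.52% and 2.60% for Selenbp1, and 1.61% and 2.66% for Selenbp2. None of 3 tested genes near Tpm3-rs7 and none of 25 near Il23r were called. The nearest were S100a3 and S100a6, calcium-binding proteins, with 0.978 CPM in KO control and 7.29 CPM in WT control libraries for S100a3 (log2 -2.98 ± 0.58, SE, adjusted p = 0.0203, edgeR) and 154 against 319 CPM for S100a6 (log2 -1.10 ± 0.16, adjusted p = 0.00215, edgeR).

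Gon4l, a nuclear regulator of transcription, had 8.01 CPM in KO control and 15.5 CPM in WT control libraries (log2 -0.99 ± 0.14, SE, adjusted p = 0.00140, edgeR). The groups of these 3 genes did not overlap with or without Dex. Dclk2 (log2 1.97, adjusted p = 0.0105, edgeR), also within this distance of Tpm3, is named after its values were seen. With Dex, 52 of the 98 genes near Tpm3 (53.1%) were called, beside 45.9% of all tested genes. Near Selenbp1 and Selenbp2 these were 42 of 97 (43.3%) and 43 of 100 (43.0%), both under the share of all genes. Near Il23r they were 14 of 25 (56.0%), and near Tpm3-rs7 2 of 3. Whether any of these differences follows the chromosome rather than the genotype was not tested.

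**Figure D5:**
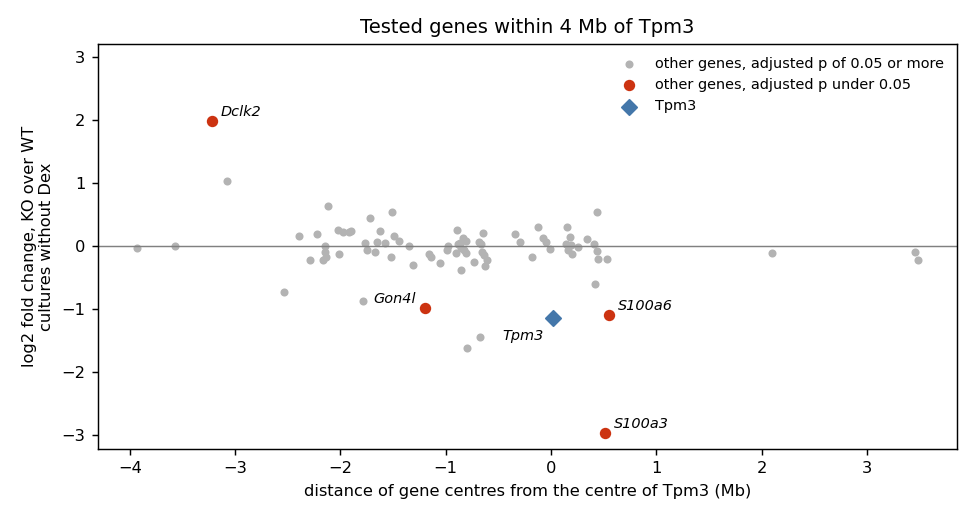
Points show the log2 fold change of KO over WT cultures without Dex (y axis, edgeR) for tested genes within 4 Mb of Tpm3. The x axis gives the distance of their centre in Mb from the start of Tpm3, which lies 0.0141 Mb before the centre named on that axis. Red points had an adjusted p under 0.05 and the blue diamond is Tpm3, described without a test. Of the red points, S100a3, S100a6 and Gon4l lie below 0 and Dclk2 above it.

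The promoters of Selenbp1 and Selenbp2, whose assigned counts both rose with Dex in KO cultures, are also much alike. RefSeq (GRCm38.p6) windows of 300 bases around the annotated starts aligned over 288 bases with 16 differences (94.4% identity) and 12 gapped columns. Capitals in the lines that follow mark letters that differ or have no partner in the alignment; Selenbp1 is at chr3:94932833-94933132 and Selenbp2 at chr3:94693323-94693622, both on the plus strand.
Selenbp1: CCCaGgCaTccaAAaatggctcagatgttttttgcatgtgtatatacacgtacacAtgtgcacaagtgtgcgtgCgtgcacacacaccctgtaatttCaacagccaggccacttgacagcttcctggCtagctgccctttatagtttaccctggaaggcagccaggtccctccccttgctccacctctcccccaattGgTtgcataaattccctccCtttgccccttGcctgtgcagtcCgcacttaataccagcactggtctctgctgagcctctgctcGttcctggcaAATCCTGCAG
Selenbp2: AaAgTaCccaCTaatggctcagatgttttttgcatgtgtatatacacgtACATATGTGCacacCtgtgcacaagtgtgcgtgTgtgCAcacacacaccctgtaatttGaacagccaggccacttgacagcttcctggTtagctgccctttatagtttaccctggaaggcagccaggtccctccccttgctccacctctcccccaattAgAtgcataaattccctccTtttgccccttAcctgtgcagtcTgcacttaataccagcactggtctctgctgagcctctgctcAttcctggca
The glucocorticoid response element, searched on both strands as AGAACA followed after 3 bases by TGTTCT, was in neither window, nor in the 2 annotated Tpm3 windows, and 3 of 32851 promoters of the same length held it (0.00913%). The shorter AGAACA, which the longer motif contains, was also absent from these windows and present in 19.0% of all promoters. This says only that these letters are not in these windows.

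Other genes of the tropomyosin and actin filament group moved in both directions with Dex in KO cultures. Of 20 listed genes 15 were tested, and with Dex in KO cultures 4 rose and 9 fell after TMM scaling, against 1 that rose and 11 that fell without scaling factors; of all tested genes 27.3% rose and 27.4% fell after TMM scaling, and 12.6% rose and 48.5% fell without scaling factors. The median change was log2 -0.33 for the list and 0.01 for all genes after TMM scaling. Tpm4, another tropomyosin of non-muscle cells, fell by 0.97 on the log2 scale (SE 0.06, adjusted p = 2.45e-09, edgeR), and averaged 109 CPM in KO with Dex and 297 CPM in KO control libraries. Tpm1 did not pass after TMM scaling (log2 -0.29 ± 0.13, SE, adjusted p = 0.0678, edgeR), at 11.9 to 19.9 CPM in KO with Dex and 23.8 to 32.3 CPM in KO control libraries, and passed as lower without scaling factors (log2 -0.76, adjusted p = 0.000239, edgeR). Tpm2 was too low to be tested, at 0.110 CPM in KO with Dex and 2.18 CPM in KO control libraries. Actb and Actg1, the cytoplasmic actins, fell by 0.61 and 0.87 on the log2 scale (adjusted p = 6.72e-06 and 2.52e-07, edgeR). Tmod4, a tropomodulin, of a family that caps filament ends, rose in both fits (adjusted p = 0.000226 after TMM scaling and 0.000432 without scaling factors, edgeR), at 3.89 to 6.28 CPM in KO with Dex and 0 to 0.562 CPM in KO control libraries, a level too low for a fold change. In WT cultures 0 of the 15 rose and 4 fell with Dex after TMM scaling, where 3.88% of tested genes rose and 4.2% fell. Without scaling factors 0 rose and 6 fell, where 2.24% of tested genes rose and 6.33% fell. Between KO and WT control libraries none of the 15 was called, where 0.684% of all tested genes were. In vivo no listed gene that was tested was called, where 0 to 0.0714% of all tested genes were.

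Of 24 listed selenium and selenoprotein genes 22 were tested, and with Dex in KO cultures 6 rose and 8 fell after TMM scaling, where 27.3% of all tested genes rose and 27.4% fell, against 1 and 13 without scaling factors, where 12.6% rose and 48.5% fell. Selenow, a small selenoprotein, rose by log2 1.17 ± 0.09 (SE, adjusted p = 2.06e-08, edgeR) and passed in both fits. Selenoh, a nuclear selenoprotein, and Sephs2, which makes the selenophosphate used to build selenocysteine, fell by 1.24 and 1.22 on the log2 scale (adjusted p = 1.39e-06 and 6.90e-06, edgeR). In WT cultures with Dex 2 rose and 2 fell after TMM scaling, where 3.88% of all tested genes rose and 4.2% fell. Among the listed genes, Selenop, a selenium transport protein, rose by log2 0.55 ± 0.12 (SE, adjusted p = 0.0104, edgeR) and passed in both fits. Without scaling factors 1 listed gene rose and 2 fell, where 2.24% of all tested genes rose and 6.33% fell. None of the 22 was called between KO and WT control libraries, where 0.684% of all tested genes were. In vivo no listed gene that was tested was called, where 0 to 0.0714% of all tested genes were. The medians in KO cultures with Dex were log2 -0.11 for the list and 0.01 for all genes.

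Over the 16 in vitro libraries, Tpm3-rs7 and Selenbp2 had patterns like each other, with a Pearson correlation of 0.94 in TMM-scaled log2 CPM, and both are high in KO and near 0 in WT cultures. Slc7a1 (0.93) and Ap3b1 (0.92) came next for Tpm3-rs7, and Muc13 (-0.95), Il17f (-0.94), which encodes a Th17 cytokine, and Sval1 (-0.93) were the most opposite. Selenbp2 was also most like Ap3b1 and H2-Eb1 (both 0.94), and most opposite to Gon4l (-0.97), Gfra1 (-0.93) and Dusp6 (-0.93). Tpm3 was most like Tnfrsf8 (0.91), which encodes CD30, Enpp2 (0.90) and Dgat1 (0.88), and most opposite to Mid1 (-0.89), Tpm3-rs7 (-0.89) and Jade2 (-0.85). Selenbp1 was most like Rnf181, Sdc4 and Dgat2 (each 0.99) and most opposite to Ywhab (-0.99), Dnmt1 (-0.98) and Dkc1 (-0.98). Tpm3, Tpm3-rs7, Selenbp1 and Selenbp2 were chosen by how the counts of each pair split between KO and WT cultures. The correlations of Tpm3-rs7 with Selenbp2 (0.94) and with Tpm3 (-0.89) are thus not independent of the choice. Nothing is read from them. The libraries also share treatment, genotype and depth, and all these correlations are descriptions.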

How the data were processed

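Gene expression was measured by RNA sequencing in 38 libraries, which fill the columns of 4 deposited tables, and were grouped by their labels. The authors deposited expected counts (estimated counts) per gene symbol, made with RSEM 1.3.3 on mm10 per the submitters' processing notes. Being whole numbers, they were taken as estimates already rounded. The sources used here do not give the aligner, the annotation or the treatment of multiply mapped reads. Tables were not joined and no column was left out.

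Testing used edgeR 4.0.16 in R 4.3.3 (filterByExpr at a minimum count of 10 and a minimum total of 15, TMM scaling, quasi-likelihood F test, Benjamini-Hochberg adjusted p under 0.05 over all genes tested). All 16 in vitro libraries entered 1 fit, and each in vivo table had its own. The SE of an edgeR log2 fold change is its absolute value divided by the square root of the F statistic. Sums of pairs replaced their genes in a second fit of the same kind. In vitro all 4 genes passed the filter, Tpm3-rs7 and Selenbp2 only through their counts in KO cultures. In the CNS tables Tpm3 and Selenbp1 passed, and in the dLN Tpm3 alone. Shares were compared by exact two-sided permutation tests over libraries with at least 20 counts for the pair. Levels are CPM of all deposited counts. The fits were tested on simulated data first. No libraries were duplicates: in 54 pairs of libraries within groups chi-square divided by its degrees of freedom was at least 3.74.

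Transcripts and positions came from GENCODE M21 and promoters from RefSeq (GRCm38.p6). Proteins were not used here. The 4 genes, the lists and the tests were chosen with earlier results of these data known. Other genes are named by rules: at most 6 of each list, the 3 most and least similar genes by correlation over the 16 in vitro libraries, called genes within 5 Mb that separate the genotypes with and without Dex, and copies whose shares do not overlap. A result for 1 called gene within 5 Mb is not reported here. Alternatives were DESeq2 1.42.0, DESeq2 size factors, no filter on low counts, removal of 16 repeat and ribosomal RNA features, leaving out each library, the replicate number as a block, only the 8 libraries compared, a minimum of 50 counts, division by exonic length, 36-base words and windows of 2 and 10 Mb. Fits without scaling factors were added after seeing the data.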

Additional observations from a re-analysis of the deposited data

Results flagged for a closer look

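The Dex response differed between KO and WT cultures by the test of the difference itself, for Selenbp1 (log2 2.22, KO minus WT), the sum of the Selenbp pair (2.23), Tpm3 (0.56) and the sum of the Tpm3 pair (0.34). The Selenbp differences passed without scaling factors too, and the Tpm3 differences did not. These differences are made from the KO against WT values that chose the genes, so their tests are not independent of the choice.

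Single libraries stood far from the other 3 of their group for 4 CPM values, among 48 groups of a gene or a pair examined, and for 2 shares; chance alone gives about 1 in 20 groups. Tpm3 had 173 CPM in KO with Dex library 5, against 196 to 200 CPM in the other 3 of that group. Tpm3-rs7 had 1.68 CPM in GR WT library 4, against 0.764 to 0.901 CPM in the other 3. Selenbp2 had 0.438 CPM (0.212% of its pair) in WT control library 1 and 1.62 CPM (1.28% of its pair) in WT with Dex library 2, which are 2 and 7 counts, and 0 in the other libraries of those groups. The 2 shares rest on these same counts. A lone library with counts beside libraries at 0 always stands this far apart, so the chance rate above does not apply to Selenbp2.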

How the results depend on the processing

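The calls of Selenbp1, Selenbp2 and their sum with Dex in KO cultures, and of Selenbp1 and the sum for the difference between genotypes, held under each alternative run. The calls of Tpm3 itself held under each alternative but the one without scaling factors, and the difference of the Tpm3 sum fell to 0.30 (adjusted p = 0.0523) with no filter on low counts.

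Without scaling factors, added after seeing the data, Dex in KO cultures gave log2 0.11 for Tpm3, -0.32 for Tpm3-rs7 and -0.11 for the Tpm3 sum, Dex in WT cultures gave -0.10 for Tpm3 and -0.10 for its sum, and the genotype difference was 0.21 for Tpm3 and -0.012 for its sum. The split of all genes called with Dex in KO cultures was then 1363 higher and 5240 lower, against 2950 and 2961 with TMM. For KO against WT cultures with Dex, the log2 ratio of mean CPM was -0.90 for Tpm3 (-0.60 with TMM, -0.69 without repeat features), 1.59 for Selenbp1 (1.89 and 1.80), 0.01 for the Tpm3 sum (0.32 and 0.23) and 1.75 for the Selenbp sum (2.05 and 1.96). Dividing by exonic length moved the KO minus WT difference in the share of Tpm3-rs7 to 76.8 points without Dex and 71.1 with Dex. In words of 36 bases the shared part was 73.0% for Tpm3, 75.9% for Tpm3-rs7, 63.0% for Selenbp1 and 62.7% for Selenbp2. Genes called were 178 by DESeq2 and 72 with no filter for CHD1 in the CNS (1 in the fit reported), 385 and 511 in the dLN (7), and 122 and 4 for GR (0).

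Within a table, same-numbered libraries did not deviate together in every pair (correlations of -0.080 to 0.109), so they were not treated as pairs; CNS and dLN libraries were not compared by number. With the replicate block the called genes were 3 for CHD1 in the CNS and 613 in the dLN, where the Selenbp sum turned to log2 0.43 (-0.08 without the block), and every call on the 4 genes was on the same side of the threshold; GR libraries share no numbers.

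Leaving out 1 library at a time gave 531 to 829 genes called with Dex in WT cultures, 0 to 2 for CHD1 in the CNS, 0 to 990 in the dLN (990 without cKO library 4) and 0 to 2 for GR. Values without a call moved across 0: Tpm3 with Dex in WT cultures (-0.016 to 0.054, its sum -0.016 to 0.053), the Selenbp sum in the dLN (-0.54 to 0.97), and Selenbp1 and its sum for GR (-0.32 to 0.35 and -0.39 to 0.28). In percentage points, the share of Tpm3-rs7 changed by -8.28 to -6.75 with Dex in KO cultures and by -0.194 to -0.134 for GR, where 3 against 4 libraries cannot pass, by -0.065 to 0.073 with Dex in WT cultures, by -0.148 to 0.083 for CHD1 in the CNS and by -0.176 to 0.00095 in the dLN. The share of Selenbp2 changed by -1.17 to 1.10 with Dex in KO cultures, -0.053 to 0.372 in WT cultures, -1.03 to 7.54 for CHD1 in the CNS and -5.30 to 0.103 for GR. The cause of these shifts was not tested.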
